A study of Danio rerio with 8 samples.

Results

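Translation factors are the proteins that start and extend peptide chains on the ribosome, and their genes were read here as a module. The module holds every gene of the count table whose zebrafish symbol starts with eif followed by a digit, or with eef followed by 1 or 2, which gave 84 of 31901 genes. Of these, 66 are named as initiation factors and 18 as elongation factors or their modifying enzymes. RNA was measured in GFP-positive cells, described by the labels as cells of the myosepta and around vessels. They were sorted from larvae of the line BAC(pdgfrb:Gal4ff)ncv24;UAS:GFP in both groups. Lesioned larvae had a mechanical injury of the spinal cord 1 day before collection, unlesioned larvae had none, and both groups were 4 days old after fertilization, with 4 libraries each. The cells were dissociated with trypsin, sorted by flow cytometry and sequenced after SMART-seq2 library preparation. GFP depends on the pdgfrb promoter through Gal4ff, so the sorted cells were chosen by promoter activity. The labels do not give the number of larvae or clutches behind a library, and p-values measure the spread between libraries, which may be technical.

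Initiation begins when eIF2 delivers the initiator tRNA to the small ribosomal subunit, which eIF1, eIF1A, eIF3 and eIF5 hold ready for scanning. The eIF4F complex, made of the cap-binding eIF4E, the scaffold eIF4G and the helicase eIF4A, brings the messenger RNA, and eIF4E-binding proteins (4E-BPs) block it by occupying eIF4E. During elongation eEF1A delivers aminoacyl-tRNAs, eEF1B recharges eEF1A with GTP and eEF2 moves the ribosome along the message. Supply is regulated at several steps, among them phosphorylation of eIF2 by stress kinases, of the 4E-BPs by the kinase mTOR, and of eEF2 by its kinase eEF2K.

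The libraries held 19552807 to 25358885 counts each. Libraries 3 and 4 of both groups stood apart from libraries 1 and 2, with 13.8 to 16.8% of counts from mitochondrial genes against 8.91 to 10.2%, and with 64 to 158 counts of synthetic spike-in RNA against 0 to 3. Values are therefore also given for libraries 1 and 2 and for libraries 3 and 4 alone. Levels are given in CPM, which are counts scaled to the library total after adjustment by TMM factors, the scaling factors between libraries from edgeR. Summed markers of the sorted population, pdgfrb among them, reached 14405 to 20475 CPM in lesioned and 17053 to 25910 CPM in unlesioned libraries. Of the 10 markers, 3 had the higher mean in lesioned. Within this list pdgfrb itself had close means, with 195 ± 68.5 CPM in lesioned and 213 ± 27.4 CPM in unlesioned libraries. Its log2 fold change was -0.13 ± 0.27 (SE, edgeR adjusted p = 0.924). The mural and smooth muscle genes acta2, tagln, rgs5a and myh11a had lower means in lesioned libraries. Levels of acta2 were 3623 ± 1131 CPM in lesioned and 9028 ± 4234 CPM in unlesioned libraries, and those of tagln 244 ± 71.1 CPM in lesioned and 489 ± 41.8 CPM in unlesioned libraries (SD, n = 4 each). For rgs5a the means were 221 CPM in lesioned and 503 CPM in unlesioned libraries, for myh11a 953 CPM in lesioned and 1867 CPM in unlesioned, and for the tendon gene tnmd 187 CPM in lesioned and 642 CPM in unlesioned. The 3 genes with higher lesioned means were the collagen genes col1a1a (6568 CPM in lesioned, 5401 CPM in unlesioned) and col1a2 (4444 CPM in lesioned, 3660 CPM in unlesioned) and the tendon gene scxa (56.5 CPM in lesioned, 32.2 CPM in unlesioned). Groups did not overlap for rgs5a, tagln and scxa, and none of the 10 passed in edgeR. Among markers of other cells, skeletal muscle genes summed to 323 to 3383 CPM in lesioned and 751 to 1628 CPM in unlesioned libraries, and 3 of 4 had the higher mean in lesioned. Epidermal genes summed to 276 to 2834 CPM in lesioned and 119 to 4162 CPM in unlesioned libraries (1 of 5 higher in lesioned), and notochord genes to 19.2 to 227 CPM in lesioned and 2.49 to 40.7 CPM in unlesioned libraries (5 of 5 higher in lesioned). Pigment cell genes summed to 38.6 to 91.4 CPM in lesioned and 105 to 347 CPM in unlesioned libraries (1 of 5 higher in lesioned), with no overlap. Most of this sum was pnp4a, with means of 68.5 CPM in lesioned and 192 CPM in unlesioned libraries. The means of pmela were 3.11 CPM in lesioned and 3.67 CPM in unlesioned libraries, and mitfa, dct and tyrp1b averaged under 1 CPM in both groups. Neuron, glia, erythroid, macrophage, neutrophil and endothelial markers stayed below 225 CPM in sum in each library of either group. The highest sums were 224 CPM for glia in unlesioned 2, 83.2 CPM for neutrophils in unlesioned 4 and 61.3 CPM for neurons in unlesioned 3. In lesioned libraries these lists reached at most 6.77, 1.76 and 15.8 CPM. Macrophage and endothelial sums were highest in lesioned libraries, with 33.5 CPM in lesioned 4 and 50.2 CPM in lesioned 2. The part of all the marker lists in the results below was not tested. Across 15759 genes tested, the fit in edgeR with Benjamini-Hochberg adjustment called 3 genes higher and 0 lower in lesioned libraries.

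Translation factor genes were mostly at somewhat higher levels in lesioned than in unlesioned cells. Negative log2 fold changes under every setting tried were found for 3 of the 4 4E-BP genes and the gene of the eEF2 kinase. A negative sign in every setting that tested them was also found for the factor genes eif1, eif3hb, eif4a1b, eif4a2, eif4e2 and eef1da. The other 4E-BP gene, eif4ebp1, changed sign between settings. Of the 84 genes, 77 passed the filter on low counts, and 63 of these (81.8%) had a positive log2 fold change of lesioned over unlesioned, against 47.7% of all genes tested, while 14 had a negative one, against 52.3% of all genes. Their median log2 fold change was 0.45, with a range from -0.83 to 1.32, and the median of all genes was -0.04. None of the 77 passed the test in edgeR at an adjusted p under 0.05 in either direction, where 0.019% of all genes were called higher and 0% lower, and the lowest adjusted p of a translation factor gene was 0.183. Before adjustment, 23 genes had a higher level at p under 0.05 (29.9%, against 6.07% of all genes) and 4 a lower one (5.19%, against 5.48%). The background of all genes holds many with low counts. With a stricter filter on low counts (10 CPM), 24 of 71 were higher at that level (33.8%, against 9.85% of all genes) and 4 lower (5.63%, against 8.8%). With the replicate number as a block, 26 were higher at that level (33.8%, against 7.32% of all genes in the same fit) and 8 lower (10.4%, against 7.12%), and 0 passed after adjustment. The genes added on the lower side were eif4a1b, eif4e2, eif4ebp2 and eef1da. Leaving out lesioned 1, lesioned 2 or unlesioned 3 gave 2 lower genes in place of 4 (2.60%, against 4.22, 4.15 and 5.62% of all genes). Groups did not overlap with lesioned higher for 21 genes (27.3%, against 5.32% of all genes), and with lesioned lower for 2 genes (2.60%, against 3.91%), eif4a2 and eef2k. With the stricter filter this held for 22 of 71 with lesioned higher (31%, against 8.2% of all genes) and for 1 with lesioned lower (1.41%, against 5.52%). In bulk RNA of this kind, more cells of a type and more RNA per cell cannot be told apart.

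DESeq2, run as an alternative to edgeR, called 5 of 74 translation factor genes higher, where it called 2.81% of all genes higher, and 1 lower, where it called 2.47%. The 5 were eif2b1, EIF3A, eif4e1c, eif4g2a and eif4g3a, and the lower gene was eif4a2. Limma voom called none of the 77. Over the alternatives tried, the DESeq2 values given below are the lowest adjusted p of these 6 genes, and the highest came from libraries 3 and 4 alone, with 0.892 for the 5 higher genes and 0.965 for eif4a2.

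**Figure D1:**
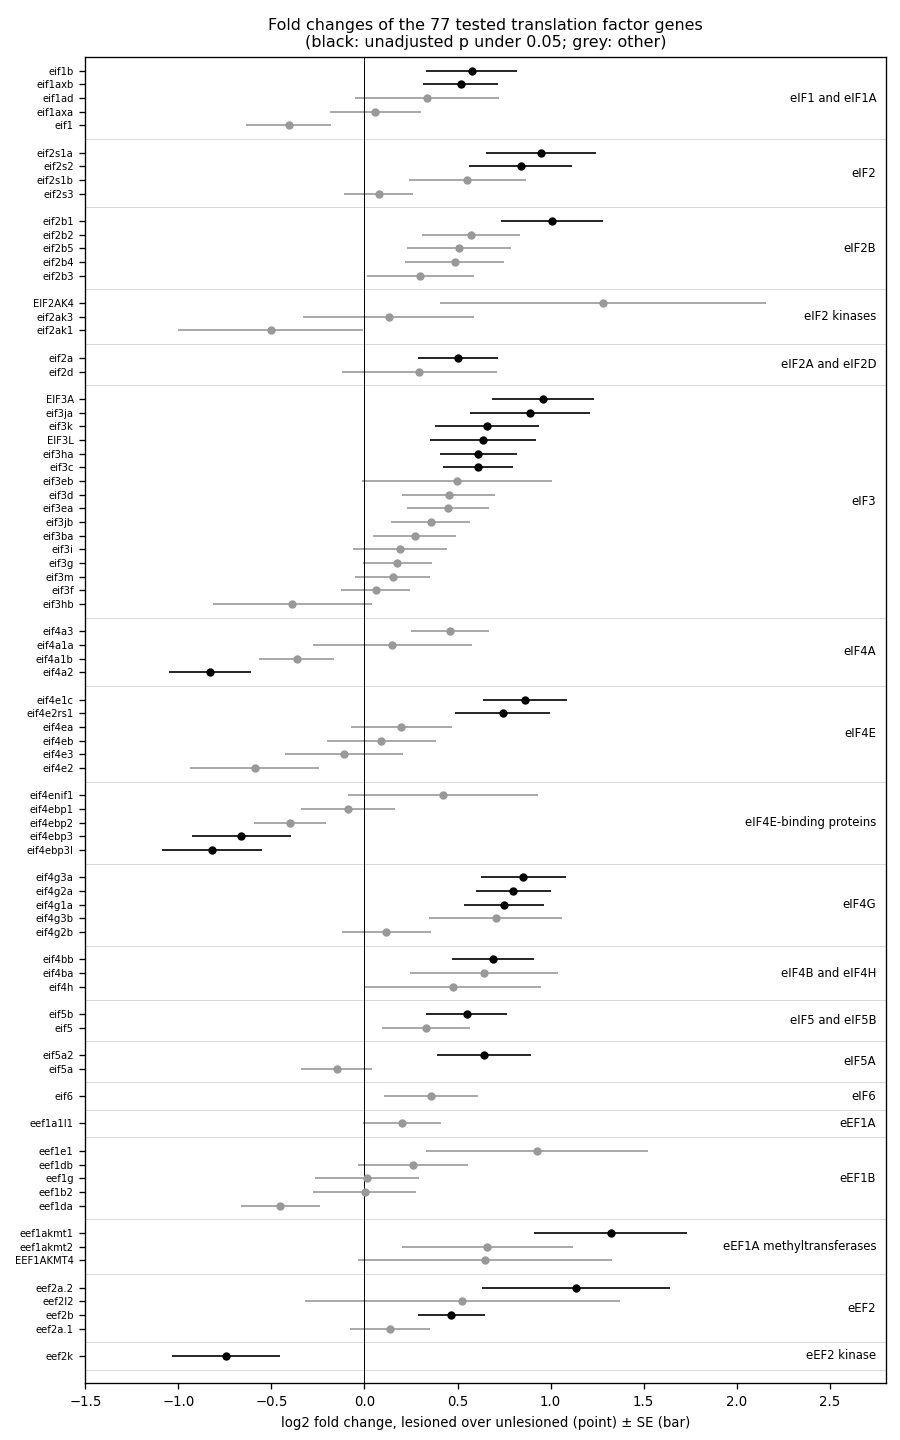
Log2 fold change of lesioned over unlesioned (x axis, points) for the 77 tested translation factor genes, grouped by factor complex down the page. Bars are 1 SE, derived from the F statistic of the edgeR test. Points at an unadjusted p under 0.05 are black and the others grey. Of the 77 points 63 lie right of 0, and the 4 black points left of 0 are eif4a2, eif4ebp3, eif4ebp3l and eef2k.

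The 2 sets of libraries gave a like direction for most of the genes. The median log2 fold change of the 77 genes was 0.31 with libraries 1 and 2 alone and 0.51 with libraries 3 and 4 alone, where the medians of all genes were 0.02 and 0.00. In both sets 51 of the 77 genes (66.2%) were positive, against 32.6% of 14930 genes with a value in both, while 11 were negative in both (14.3%, against 31.2%) and 15 had opposite signs. At each of the 4 replicate numbers, 34 genes were higher in the lesioned library (44.2%, against 13.5% of all genes tested) and 9 were lower (11.7%, against 12.9%). Summed over the module, the genes reached 24256, 21500, 19825 and 19071 CPM in lesioned 1 to 4, against 19994, 21234, 18062 and 15719 CPM in unlesioned 1 to 4. These sums overlap between the groups, and they are carried by a few very abundant genes. As a share of all counts the module took 2.24 ± 0.339% in lesioned and 1.78 ± 0.328% in unlesioned libraries (SD, n = 4 each).

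**Figure D2:**
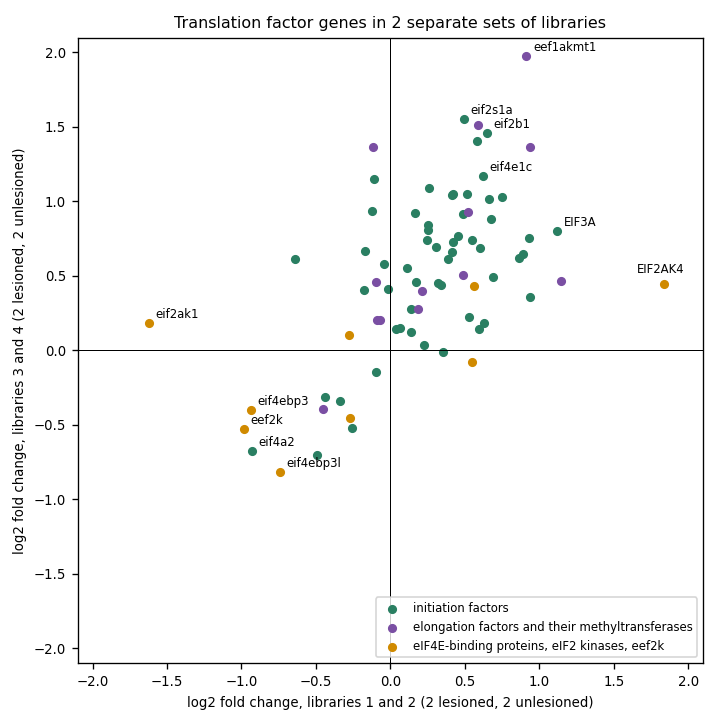
Log2 fold change of lesioned over unlesioned in libraries 1 and 2 (x axis) and in libraries 3 and 4 (y axis), 1 point per tested translation factor gene, coloured as initiation factor, elongation factor or regulator. In all, 51 points lie in the upper right field and 11 in the lower left, where eif4a2, eif4ebp3, eif4ebp3l and eef2k are found.

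Per kilobase of exon, eif5a was the most abundant gene of the module, with 944 CPM per kb on average over the 8 libraries, the 65th highest level of all genes. It encodes eIF5A, which helps ribosomes past stalling sequences and carries the modified amino acid hypusine. Next came eef1a1l1 with 842 CPM per kb, eef1g with 525 CPM per kb, eef2b with 441 CPM per kb and eif1b with 417 CPM per kb. In all, 22 genes lay above 100 CPM per kb, and 69 had a mean of at least 10 CPM in both groups. Lengths are those of all annotated exons of a gene merged, so levels per kb run low for genes with long or alternative exons, and of the 10 highest genes per kb 7 were also among the 10 highest in plain CPM.

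The 7 genes that did not pass the filter each averaged under 1 CPM. They were 4 of the 5 eEF1A genes (eef1a1a, eef1a1b, eef1a1l3 and eef1a2), the double-stranded RNA sensing kinase gene eif2ak2, and the further copies eif3bb and eif4e1b. The gene eef1a1l3 had 0 counts in all 8 libraries, and a count of 0 allows up to 3 counts in a library. All its exon bases are shared with asap1b, so its level could not be read from this table.

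**Figure D3:**
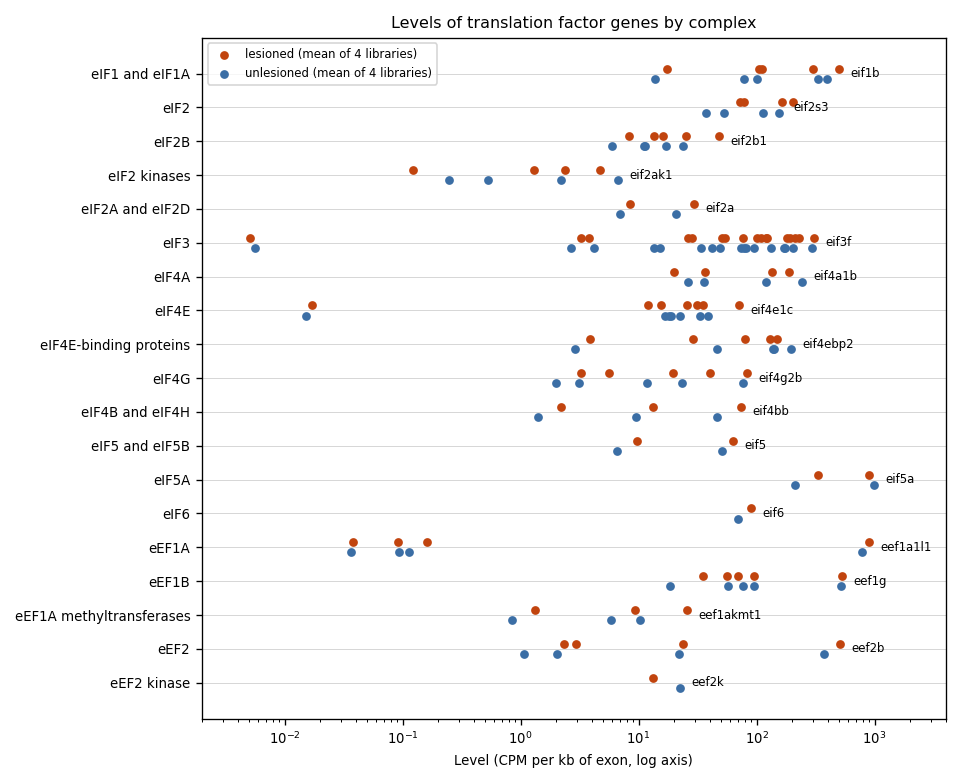
Mean level per gene in CPM per kb of exon (log x axis) for each factor complex (rows), with lesioned means above unlesioned means in each row. The highest genes are eif5a (944 CPM per kb over all 8 libraries) and eef1a1l1 (842 CPM per kb), and the eEF1A row is split between eef1a1l1 and copies below 1 CPM per kb. The gene eef1a1l3, at 0, has no point.

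Of 5 tested genes grouped by symbol with the scanning factors, which hold the ribosome ready to find a start codon, 4 were positive. The median of 0.34 is the value of eif1ad, which is in the group by symbol alone and was not counted among the eIF1 or eIF1A copies. Of the 4 positive genes, eif1ad (-0.12) and eif1axa (-0.18) were negative in libraries 1 and 2 alone. The level of eif1axb, a copy of the eIF1A gene, was 212, 186, 214 and 276 CPM in lesioned 1 to 4, against 166, 169, 157 and 129 CPM in unlesioned 1 to 4. Each lesioned library exceeded every unlesioned one, for a log2 fold change of 0.52 ± 0.20 (SE, edgeR adjusted p = 0.347). The eIF1 copy eif1b had 656, 404, 343 and 385 CPM in lesioned 1 to 4, against 349, 310.0, 287 and 253 CPM in unlesioned 1 to 4. Its groups overlapped, since lesioned 3 lay below unlesioned 1, and its log2 fold change was 0.58 ± 0.24 (edgeR adjusted p = 0.397). The other copy, eif1, had 470.4 ± 105 CPM in lesioned and 624 ± 94.4 CPM in unlesioned libraries (SD, n = 4 each), and its log2 fold change was -0.41 ± 0.23 (edgeR adjusted p = 0.553).

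All 4 genes of eIF2, the carrier of the initiator tRNA, had positive fold changes, with a median of 0.70. The alpha subunit holds the serine that stress kinases phosphorylate, and its copy eif2s1a had 104, 96.5, 81.4 and 159.7 CPM in lesioned 1 to 4, against 77.9, 64.5, 39.2 and 47.2 CPM in unlesioned 1 to 4. Its groups did not overlap, with unlesioned 3 and 4 lowest, and its log2 fold change was 0.95 ± 0.29 (SE, edgeR adjusted p = 0.234). The beta subunit gene eif2s2 had 336, 319, 228 and 161 CPM in lesioned 1 to 4, against 184, 159, 126 and 114 CPM in unlesioned 1 to 4, a log2 fold change of 0.84 ± 0.28 (edgeR adjusted p = 0.267), where lesioned 4 lay below unlesioned 1. The gamma subunit gene eif2s3, which encodes the GTP-binding subunit, had close means, with 354 ± 36.7 CPM in lesioned and 336 ± 39.4 CPM in unlesioned libraries and a log2 fold change of 0.08 ± 0.19 (edgeR adjusted p = 0.939). Per kb, the 2 alpha genes together stood at 0.908, 0.820, 0.795 and 1.21 times the level of eif2s3 in lesioned 1 to 4, and at 0.768, 0.647, 0.442 and 0.447 times in unlesioned 1 to 4. This ratio was chosen after its values were seen and was not tested. All its lesioned values lie above the unlesioned ones. The ratio of eif2s2 to eif2s3 per kb, also not tested, averaged 1.22 ± 0.273 in lesioned and 0.727 ± 0.0981 in unlesioned libraries (SD, n = 4 each). Its groups overlapped, since lesioned 4 lay just below unlesioned 1.

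The genes of eIF2B, the exchange factor that reloads eIF2 with GTP, were all 5 positive, with a median of 0.51 and log2 fold changes from 0.30 to 1.01. Summed over the complex they gave 198, 193, 195 and 249 CPM in lesioned 1 to 4, against 168, 142, 131 and 109 CPM in unlesioned 1 to 4, with no overlap. The alpha subunit gene eif2b1 (ENSDARG00000091402, chromosome 5 from 69641166 to 69649062 on the minus strand of GRCz11) had 59.7, 51.1, 61.2 and 69.9 CPM in lesioned 1 to 4, against 45.8, 24.9, 26.3 and 23.4 CPM in unlesioned 1 to 4. All lesioned libraries lay above unlesioned 1, which itself stood well above the other unlesioned libraries. Its log2 fold change was 1.01 ± 0.27 (SE, edgeR adjusted p = 0.211, DESeq2 adjusted p = 0.0328), with 0.65 from libraries 1 and 2 and 1.46 from libraries 3 and 4. The gene eif2b4 shares 27% of its exon bases with 2 other genes, atraid and ENSDARG00000116471, so its counts are uncertain.

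The eIF2 kinase genes, whose products lower initiation under stress, had low levels and wide spread. The gene of the amino acid sensing kinase GCN2, EIF2AK4, had 4.51, 11, 0.768 and 4.76 CPM in lesioned 1 to 4, against 1.82, 2.51, 0.578 and 3.71 CPM in unlesioned 1 to 4. Its groups overlapped, and the log2 fold change of 1.28 ± 0.88 (SE) had an adjusted p of 0.652 in edgeR. The heme-regulated kinase gene eif2ak1 had 8.51, 6.19, 31.2 and 17.2 CPM in lesioned 1 to 4, against 16.2, 29.1, 25.1 and 19.1 CPM in unlesioned 1 to 4. The sets of libraries disagreed for this gene, with a log2 fold change of -1.62 from libraries 1 and 2 but 0.19 from libraries 3 and 4, and -0.50 ± 0.50 over all libraries (edgeR adjusted p = 0.787). It shares 28.1% of its exon bases with usp42. The endoplasmic reticulum stress kinase gene eif2ak3 averaged 10.6 ± 4.35 CPM in lesioned and 9.67 ± 3.96 CPM in unlesioned libraries, a log2 fold change of 0.13 ± 0.46 (edgeR adjusted p = 0.959) that turned negative in libraries 3 and 4 alone. Outside the eIF2 complex, eif2a encodes a separate protein that can bring initiator tRNA to some messages. It had 63.6, 48.9, 53 and 53.2 CPM in lesioned 1 to 4, against 42.5, 41.9, 31.2 and 38.7 CPM in unlesioned 1 to 4, with no overlap between the groups and a log2 fold change of 0.50 ± 0.22 (edgeR adjusted p = 0.402).

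For eIF3, the largest initiation factor and the platform that binds the small subunit, 15 of 16 tested genes had positive fold changes, with a median of 0.45. At an unadjusted p under 0.05 in edgeR, 6 were higher (37.5%, against 6.07% of all genes). The exception to the positive sign, eif3hb, is a minor copy of the eIF3h gene. In libraries 1 and 2 alone eif3eb (-0.11), eif3i (-0.042) and eif3m (-0.018) were negative as well. EIF3A, the scaffold subunit (ENSDARG00000076815, chromosome 13 from 19283936 to 19317569 on the plus strand of GRCz11), had 109, 191, 110.4 and 82.4 CPM in lesioned 1 to 4, against 72.8, 64.8, 59.1 and 56.2 CPM in unlesioned 1 to 4. Its groups did not overlap, lesioned 2 was highest, and its log2 fold change was 0.96 ± 0.27 (SE, edgeR adjusted p = 0.220, DESeq2 adjusted p = 0.0426). In libraries 1 and 2 that value was 1.12, and in libraries 3 and 4 it was 0.80.

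The core subunit gene eif3c had 153, 159, 149 and 197 CPM in lesioned 1 to 4, against 99.4, 114, 116 and 101 CPM in unlesioned 1 to 4, again without overlap, a log2 fold change of 0.61 ± 0.19 (edgeR adjusted p = 0.234). The gene eif3ha, main copy of the eIF3h subunit, had 162, 162, 126 and 154 CPM in lesioned 1 to 4, against 88.4, 125, 97.8 and 83.4 CPM in unlesioned 1 to 4. Each lesioned value exceeded each unlesioned one, and the log2 fold change was 0.61 ± 0.21 (edgeR adjusted p = 0.274). The genes EIF3L and eif3k encode a pair of subunits that bind each other at the edge of the complex. They had log2 fold changes of 0.64 ± 0.29 and 0.66 ± 0.28 (edgeR adjusted p = 0.429 and 0.398), and only eif3k of this pair had groups that did not overlap. For eif3ja, a copy of the loosely bound j subunit, the log2 fold change was 0.89 ± 0.32 (edgeR adjusted p = 0.310), and 30.9% of its exon bases are shared with another gene.

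Other subunits had smaller differences. The most abundant eIF3 gene per kb, eif3f, had 316, 273, 265 and 244 CPM in lesioned 1 to 4, against 292, 281, 246 and 233 CPM in unlesioned 1 to 4. The groups overlapped widely, with a log2 fold change of 0.06 ± 0.19 (edgeR adjusted p = 0.953) that turned slightly negative without lesioned 1. Another 3 subunit genes had log2 fold changes between 0.15 and 0.19. Summed over the complex, eIF3 genes gave 3411, 3179, 2666 and 2993 CPM in lesioned 1 to 4, against 2665, 2816, 2146 and 1899 CPM in unlesioned 1 to 4, where lesioned 3 lay below unlesioned 2.

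In the eIF4F complex all 5 genes of the scaffold eIF4G were positive over all libraries, with a median log2 fold change of 0.75. Groups did not overlap with lesioned higher for 3 of them (60%, against 5.32% of all genes). Of the 5, eif4g2b was slightly negative in libraries 3 and 4 alone (-0.0099) and without unlesioned 2 (-0.0066). The scaffold gene eif4g1a had 183, 188, 169 and 262 CPM in lesioned 1 to 4, against 125, 107, 141 and 105 CPM in unlesioned 1 to 4, a log2 fold change of 0.75 ± 0.22 (SE, edgeR adjusted p = 0.224). The gene eif4g2a (ENSDARG00000020377, chromosome 7 from 66634167 to 66654025 on the plus strand of GRCz11) encodes an eIF4G relative which, in mammals, lacks the eIF4E-binding site and serves cap-independent initiation. It had 176, 159, 171 and 148 CPM in lesioned 1 to 4, against 119, 92, 82 and 82.4 CPM in unlesioned 1 to 4, and the lowest lesioned library stood above unlesioned 1, the highest of the unlesioned. Its log2 fold change was 0.80 ± 0.20 (edgeR adjusted p = 0.183, DESeq2 adjusted p = 0.0141), 0.66 from libraries 1 and 2 and 1.02 from libraries 3 and 4. For its copy eif4g2b, which is the more abundant per kb, the log2 fold change was 0.12 ± 0.24 (edgeR adjusted p = 0.920).

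The scaffold gene eif4g3a (ENSDARG00000077215, chromosome 11 from 27828212 to 27917730 on the minus strand of GRCz11) had 42.8, 42.4, 41.2 and 40.3 CPM in lesioned 1 to 4, against 24.2, 26.4, 22.7 and 19 CPM in unlesioned 1 to 4. Lesioned libraries spanned less than 3 CPM and all lay above the unlesioned ones. The log2 fold change was 0.85 ± 0.23 (SE, edgeR adjusted p = 0.197, DESeq2 adjusted p = 0.0117), 0.75 from libraries 1 and 2 and 1.03 from libraries 3 and 4. Helicase cofactors had the same sign: all 3 genes of eIF4B and eIF4H were positive, with a median of 0.64, although eif4h was negative without lesioned 2 (-0.07). The main eIF4B gene eif4bb had 173, 169.7, 163 and 225 CPM in lesioned 1 to 4, against 95.7, 92.3, 137 and 128 CPM in unlesioned 1 to 4, with no overlap and a log2 fold change of 0.69 ± 0.22 (edgeR adjusted p = 0.242).

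The genes grouped by symbol as eIF4A went in both directions, with 2 of 4 positive, eif4a1a and eif4a3. The higher value, 0.46, was that of eif4a3, which was not counted among the eIF4A copies whose shares are given below. Among those copies, eif4a1a, eif4a1b and eif4a2, only eif4a1a was positive. The copy eif4a2 (ENSDARG00000016477, chromosome 2 from 7715810 to 7727248 on the plus strand of GRCz11) had 36.8, 33.7, 35.8 and 46.5 CPM in lesioned 1 to 4, against 69, 65.2, 81.7 and 55.6 CPM in unlesioned 1 to 4. All lesioned libraries lay below all unlesioned ones, a log2 fold change of -0.83 ± 0.22 (SE, edgeR adjusted p = 0.197, DESeq2 adjusted p = 0.0306), with -0.93 from libraries 1 and 2 and -0.67 from libraries 3 and 4. The most abundant copy per kb, eif4a1b, had 524, 437, 413 and 348 CPM in lesioned 1 to 4, against 574, 638, 476 and 528 CPM in unlesioned 1 to 4, and was lower in lesioned at all 4 replicate numbers. Its log2 fold change was -0.36 ± 0.20 (edgeR adjusted p = 0.549). The copy eif4a1a had 829, 528, 250.1 and 294 CPM in lesioned 1 to 4, against 619.6, 543, 234 and 319 CPM in unlesioned 1 to 4, and its log2 fold change of 0.15 turned negative without lesioned 1 (-0.25) or unlesioned 3 (-0.058).

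Of the cap-binding eIF4E genes, 4 of 6 tested were positive (5 with library size alone as scaling, where eif4e3 was 0.011), with a median of 0.14. Among the positive genes, eif4ea was negative in libraries 1 and 2 alone (-0.17), and eif4eb without lesioned 1 (-0.0075) or lesioned 4 (-0.12). The gene eif4e3, negative over all libraries, was also positive in libraries 3 and 4 alone (0.62), without lesioned 2 (0.015) and without unlesioned 2 (0.15). The gene eif4e1c (ENSDARG00000012274, chromosome 13 from 18311410 to 18324469 on the plus strand of GRCz11), a class I eIF4E of fish, had 141, 114, 128 and 178 CPM in lesioned 1 to 4, against 82.6, 83.4, 84.7 and 57.6 CPM in unlesioned 1 to 4. No unlesioned library reached the lesioned range, and the log2 fold change was 0.86 ± 0.23 (SE, edgeR adjusted p = 0.193, DESeq2 adjusted p = 0.0300), 0.62 from libraries 1 and 2 and 1.17 from libraries 3 and 4. The other class I copies eif4ea and eif4eb had log2 fold changes of 0.20 ± 0.27 and 0.09 ± 0.29 (edgeR adjusted p = 0.868 and 0.954). The eIF4E2-related gene eif4e2rs1 had 67.9, 54.6, 55.1 and 81.5 CPM in lesioned 1 to 4, against 54.1, 31.6, 34.6 and 34.6 CPM in unlesioned 1 to 4, without overlap, a log2 fold change of 0.74 ± 0.26 (edgeR adjusted p = 0.282).

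The 4E-BP genes, whose products compete with eIF4G for eIF4E, had the opposite sign to most of the module. All 4 had negative log2 fold changes over all libraries, but eif4ebp1 was positive with library size alone as scaling (0.079), in libraries 3 and 4 alone (0.10), without lesioned 1 (0.046), without lesioned 2 (0.019) and without unlesioned 3 (0.058). With eif4enif1, a carrier of eIF4E that had 0.42 ± 0.51 (edgeR adjusted p = 0.840), the median of the 5 eIF4E-binding genes was -0.40. The gene eif4ebp3l had 93, 82.5, 146 and 104 CPM in lesioned 1 to 4, against 164, 129.6, 249 and 208 CPM in unlesioned 1 to 4. The groups overlapped through lesioned 3 and unlesioned 2, and within each replicate number the lesioned library was lower. Its log2 fold change was -0.82 ± 0.27 (SE, edgeR adjusted p = 0.262), with -0.74 from libraries 1 and 2 and -0.82 from libraries 3 and 4.

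The related gene eif4ebp3 had 27.8, 41.3, 61.7 and 49.1 CPM in lesioned 1 to 4, against 60.04, 72.3, 76.1 and 75.9 CPM in unlesioned 1 to 4, where lesioned 3 just passed unlesioned 1. The log2 fold change was -0.66 ± 0.27 (edgeR adjusted p = 0.360). The most abundant 4E-BP gene per kb, eif4ebp2, had 392, 429, 480.1 and 397 CPM in lesioned 1 to 4, against 512, 478, 686 and 567 CPM in unlesioned 1 to 4. It was lower in lesioned at all 4 replicate numbers, although lesioned 3 passed unlesioned 2, and its log2 fold change was -0.40 ± 0.19 (edgeR adjusted p = 0.475). For eif4ebp1 the value was -0.09 ± 0.25 (edgeR adjusted p = 0.948). Per kb, the 4 4E-BP genes together stood at 2.28, 3.45, 4.17 and 2.43 times the class I eIF4E genes in lesioned 1 to 4, and at 4.62, 4.54, 6.55 and 6.76 times in unlesioned 1 to 4. This ratio of RNA levels averaged 3.08 ± 0.894 in lesioned and 5.62 ± 1.20 in unlesioned libraries (SD, n = 4 each), with no overlap. It was chosen after its values were seen and was not tested. The ratio of the 5 eIF4G genes to class I eIF4E, also not tested, had close means and overlapping groups. It averaged 1.21 ± 0.261 in lesioned and 1.24 ± 0.218 in unlesioned libraries (SD, n = 4 each).

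**Figure D4:**
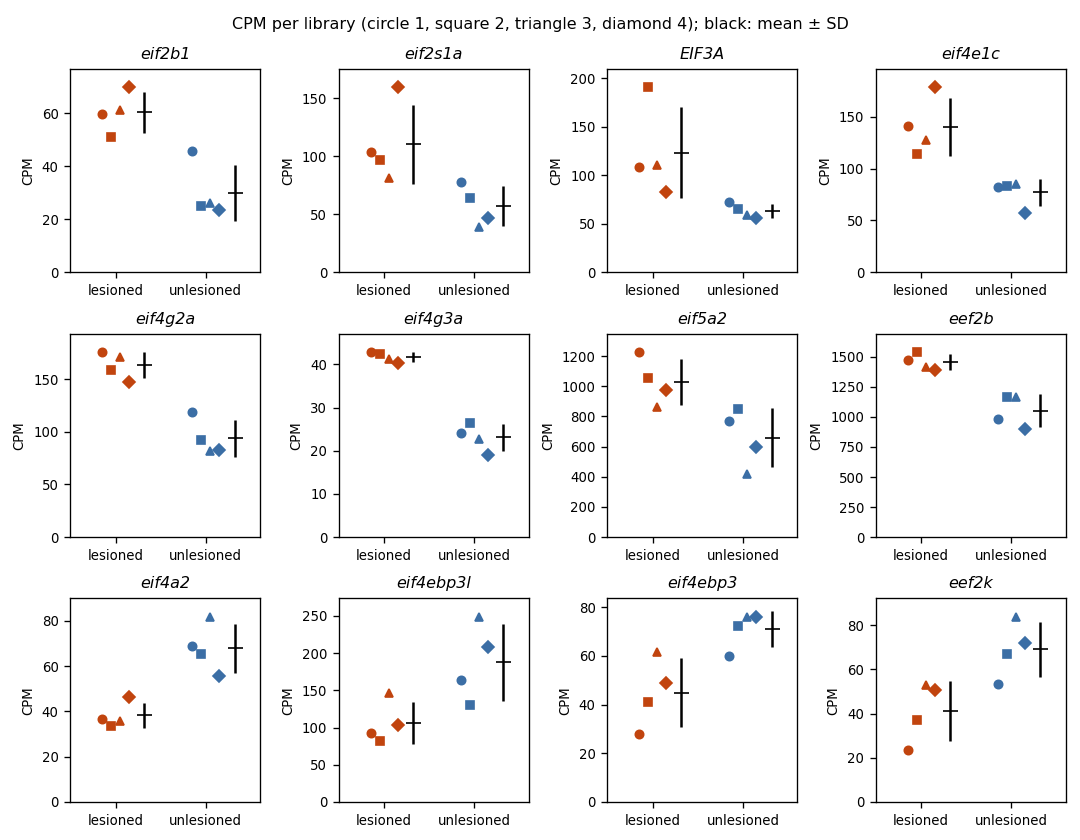
CPM in each library (y axis, from 0) for 12 translation factor genes, with lesioned left of unlesioned in each panel, a marker shape per replicate number and black bars for the mean ± SD of 4 libraries. In the first 8 panels the lesioned points lie above the unlesioned ones, and in the last 4 (eif4a2, eif4ebp3l, eif4ebp3 and eef2k) they lie lower, with overlap for eif4ebp3l and eif4ebp3.

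In the late steps of initiation, eIF5 stimulates GTP hydrolysis by eIF2 and eIF5B joins the large subunit. The gene eif5b had 65.9, 72.7, 69 and 105 CPM in lesioned 1 to 4, against 50.01, 53.6, 55.5 and 54.3 CPM in unlesioned 1 to 4, with no overlap and a log2 fold change of 0.55 ± 0.22 (SE, edgeR adjusted p = 0.351). For eif5 the log2 fold change was 0.33 ± 0.24, and for eif6, whose product keeps free large subunits from joining too early, it was 0.36 ± 0.25 (edgeR adjusted p = 0.676 and 0.675). The abundant eif5a (ENSDARG00000017235, chromosome 24 from 26481300 to 26485345 on the minus strand of GRCz11) had 2407, 1999.7, 2078 and 1756 CPM in lesioned 1 to 4, against 2356, 2359, 2514 and 1909 CPM in unlesioned 1 to 4. These values overlapped, with a log2 fold change of -0.15 ± 0.19 (edgeR adjusted p = 0.853), whose sign turned (0.01) with library size alone as scaling. Its second copy eif5a2 had 1226, 1051, 863 and 972 CPM in lesioned 1 to 4, against 769.6, 852, 415 and 599.9 CPM in unlesioned 1 to 4. Here lesioned 3, the lowest of its group, stood just above unlesioned 2, and the log2 fold change was 0.64 ± 0.25 (edgeR adjusted p = 0.351).

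For elongation, 12 of the 14 tested genes were positive (11 with DESeq2 size factors, where eef1b2 was -0.0041), with a median of 0.36. These 14 include eef2k, the 3 eEF1A methyltransferase genes and eef1e1, which is in the group by symbol alone. In libraries 1 and 2 alone eef1akmt2 (-0.12), eef1b2 (-0.091), eef1g (-0.068) and eef2a.1 (-0.094) were negative as well. At an unadjusted p under 0.05 in edgeR over all libraries, 3 of the 14 were higher (21.4%, against 6.07% of all genes) and 1 lower (7.14%, against 5.48%). Nearly all eEF1A counts came from eef1a1l1 (ENSDARG00000020850, chromosome 19 from 43119014 to 43137740 on the plus strand of GRCz11), which held at least 99.9% of the eEF1A level per kb in every library. It had 6326, 5518, 4909 and 4355 CPM in lesioned 1 to 4, against 4862, 5543, 4239.9 and 3724 CPM in unlesioned 1 to 4. These ranges overlap, and the log2 fold change was 0.20 ± 0.21 (SE, edgeR adjusted p = 0.804). The eEF1A copies resemble each other closely, so the split of reads between them is uncertain.

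The 4 genes for subunits of eEF1B, the complex that recharges eEF1A (eef1b2, eef1da, eef1db and eef1g), had a median of 0.01, with 3 positive. Of the positive genes, eef1b2 (0.001) and eef1g changed sign between settings. The gamma subunit gene eef1g had 802 ± 199.9 CPM in lesioned and 794 ± 252 CPM in unlesioned libraries, a log2 fold change of 0.01 ± 0.28 (edgeR adjusted p = 0.995) that was negative in libraries 1 and 2 (-0.07). The delta copy eef1da had 351, 338, 364 and 234 CPM in lesioned 1 to 4, against 455, 489, 463 and 353 CPM in unlesioned 1 to 4. It was lower in lesioned at all 4 replicate numbers with a log2 fold change of -0.45 ± 0.21 (edgeR adjusted p = 0.462). Its level in lesioned 3 passed that of unlesioned 4. Among the enzymes that methylate eEF1A, all 3 genes were positive over all libraries, and eef1akmt2 was negative in libraries 1 and 2 alone (-0.12). The lysine methyltransferase gene eef1akmt1 had 45.3, 23.8, 21.7 and 46.7 CPM in lesioned 1 to 4, against 15.5, 21.3, 7.61 and 10.7 CPM in unlesioned 1 to 4, the highest log2 fold change of the 77 genes at 1.32 ± 0.41 (edgeR adjusted p = 0.237), and its groups lay within 1 CPM of each other at lesioned 3 and unlesioned 2.

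All 4 eEF2 genes were positive over all libraries, with a median of 0.50, and eef2a.1 was negative in libraries 1 and 2 alone (-0.094). The main gene eef2b (ENSDARG00000100371, chromosome 2 from 57149002 to 57174954 on the plus strand of GRCz11) had 1474, 1539, 1416 and 1389.6 CPM in lesioned 1 to 4, against 979.6, 1168, 1164 and 897 CPM in unlesioned 1 to 4. Every lesioned library exceeded the highest unlesioned one, and the log2 fold change was 0.47 ± 0.18 (SE, edgeR adjusted p = 0.343), with 0.49 from libraries 1 and 2 and 0.51 from libraries 3 and 4. It held 94.6 ± 0.81% of the eEF2 level per kb in lesioned and 93.6 ± 1.4% in unlesioned libraries. The minor copy eef2a.2, at 7.39 ± 1.65 CPM in lesioned and 3.36 ± 1.06 CPM in unlesioned libraries, had a log2 fold change of 1.14 ± 0.51 (edgeR adjusted p = 0.424), and it may share reads with its neighbour eef2a.1.

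The kinase gene eef2k (ENSDARG00000035835, chromosome 12 from 10381957 to 10409970 on the minus strand of GRCz11), whose product phosphorylates eEF2 and slows elongation, had 23.7, 37.3, 53.1 and 50.7 CPM in lesioned 1 to 4, against 53.6, 66.9, 83.8 and 72 CPM in unlesioned 1 to 4. The highest lesioned value lay just under the lowest unlesioned one, and with DESeq2 size factors the groups overlapped. Its log2 fold change was -0.75 ± 0.29 (SE, edgeR adjusted p = 0.343), -0.98 from libraries 1 and 2 and -0.52 from libraries 3 and 4. Per kb, the eEF2 genes together stood at 71.2, 46.7, 30.9 and 31.6 times eef2k in lesioned 1 to 4, and at 21.5, 20.03, 15.8 and 14.6 times in unlesioned 1 to 4. This ratio too was chosen after its values were seen and was not tested. Both groups have their higher ratios in libraries 1 and 2.

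Many translation factors have several gene copies in zebrafish, and within a factor the share of each copy does not depend on how libraries are scaled against each other. The share of eif5a2 in eIF5A was 27.3, 27.9, 23.4 and 28.9% of CPM per kb in lesioned 1 to 4, against 19.4, 21.0, 10.8 and 18.8% in unlesioned 1 to 4. For eif1b in eIF1 the shares were 67.4, 60.0, 52.8 and 67.6% in lesioned 1 to 4, against 48.7, 42.0, 48.7 and 43.4% in unlesioned 1 to 4. Lesioned and unlesioned libraries did not overlap for either of these copies. For eif4e1c in class I eIF4E the shares were 50.3, 57.3, 55.4 and 53.0% in lesioned 1 to 4, against 40.4, 44.8, 42.3 and 36.1% in unlesioned 1 to 4, also without overlap.

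The share of eif4g2a in eIF4G2 averaged 32.8 ± 2.1% in lesioned and 24.3 ± 6.7% in unlesioned libraries (SD, n = 4 each), with the lowest lesioned library (30.3%) just above the highest unlesioned one (29.7%). Within the 4E-BPs the share of eif4ebp3l was 20.5 ± 2.2% in lesioned and 26.7 ± 2.7% in unlesioned libraries, again apart by a small margin (22.8 and 23.1% at the closest). In eEF1D the share of eef1db was 54.8 ± 5.2% in lesioned and 42.3 ± 6.1% in unlesioned libraries, with slight overlap. The share of eif4a1a within the eIF4A copies eif4a1a, eif4a1b and eif4a2 was 48.4, 41.5, 26.1 and 31.9% in lesioned 1 to 4, against 37.7, 32.7, 20.8 and 25.6% in unlesioned 1 to 4. It was higher in libraries 1 and 2 of both groups, and at each replicate number the lesioned share was 1.24 to 1.28 times the unlesioned one. At all 4 replicate numbers the shares of eif5a2, eif1b, eif4e1c, eif4g2a, eef1db, eif1axb, eif3ja and eif2s1a were likewise higher in lesioned, and that of eif4ebp3l was lower. The shares of eif4ebp1, eif3ha, eef2a.2 and EIF2AK4 were higher at all 4 as well. Groups did not overlap for eif4ebp1 (33.2 ± 4.28% in lesioned, 26.5 ± 1.26% in unlesioned). They did not overlap either for eif3hb in eIF3h (2.52 ± 0.549% in lesioned, 4.96 ± 0.917% in unlesioned), which was lower at all 4. These copies were chosen with their values known, and the shares are descriptions with no test.

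**Figure D5:**
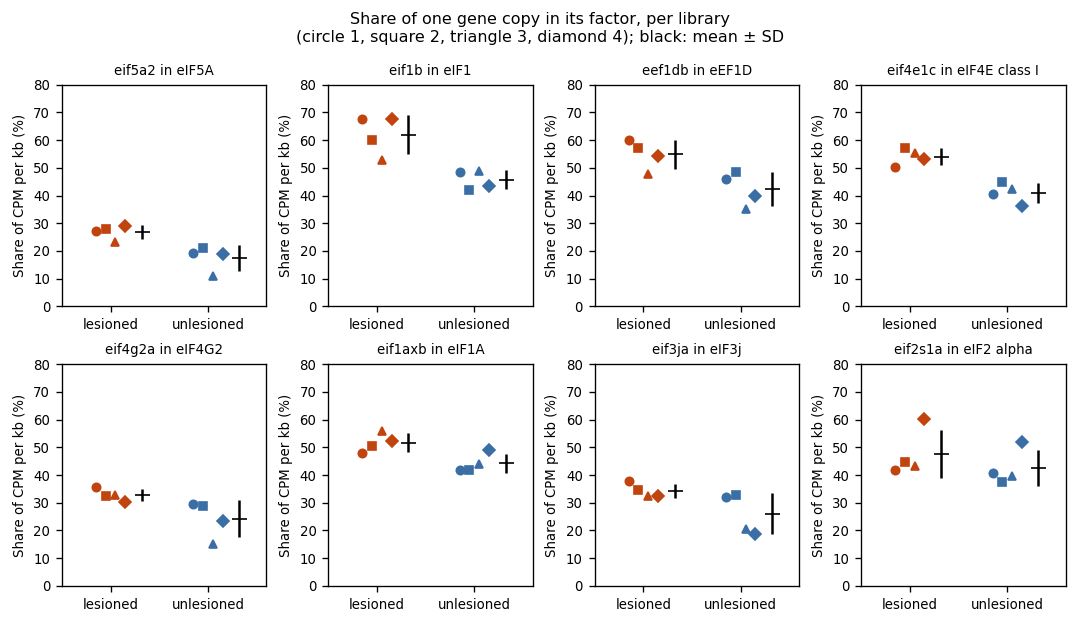
Share of 1 gene copy in the summed CPM per kb of its factor (y axis, percent), per library, with lesioned left of unlesioned in each panel and black bars for the mean ± SD of 4 libraries. The shares of eif5a2, eif1b, eif4e1c and eif4g2a do not overlap between the groups, while those of eef1db, eif1axb, eif3ja and eif2s1a do, and all 8 are higher in lesioned at each replicate number.

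Partner genes of translation outside the symbol rule were read from 7 lists with 65 genes, of which 58 were tested. None passed in edgeR. At an unadjusted p under 0.05, 7 were higher (12.1%, against 6.07% of all genes) and 3 lower (5.17%, against 5.48%). A positive log2 fold change was found for 36 (62.1%, against 47.7%), and the median was 0.11. DESeq2 called 3 of 48 with an adjusted p higher (6.25%, against 2.81%) and 0 lower (against 2.47%). The 3 were denr, gspt1l and dph5, whose adjusted p was lowest in DESeq2 and highest (0.892) in libraries 3 and 4 alone. Limma voom called 0.

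All 7 tested partners of initiation were positive over all libraries, with a median of 0.68, and dhx29 was negative in libraries 1 and 2 alone (-0.25). The gene denr, for a factor of ribosome recycling and reinitiation, had 106, 95.4, 93 and 140.1 CPM in lesioned 1 to 4, against 74.4, 50.3, 47.4 and 55.2 CPM in unlesioned 1 to 4, with no overlap and a log2 fold change of 0.93 ± 0.23 (SE, edgeR adjusted p = 0.183, DESeq2 adjusted p = 0.0197). The ribosome-splitting ATPase gene abce1 had a log2 fold change of 0.78 ± 0.23 (edgeR adjusted p = 0.229). Release factor genes split, 3 positive of 5 tested. The eRF3-type gene gspt1l had 281, 268, 208 and 272 CPM in lesioned 1 to 4, against 163, 164, 85.6 and 102 CPM in unlesioned 1 to 4, a log2 fold change of 1.00 ± 0.26 (edgeR adjusted p = 0.193, DESeq2 adjusted p = 0.0205). Its relative gspt1, named after its values were seen, had 22.6 ± 5.94 CPM in lesioned and 43.2 ± 21.7 CPM in unlesioned libraries, a log2 fold change of -0.93 ± 0.38 (edgeR adjusted p = 0.376).

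The enzymes that make hypusine on eIF5A and diphthamide on eEF2, the modified residues of these factors, had a median of 0.18 with 6 of 8 positive. Among the positive genes, dph6 was negative in libraries 1 and 2 alone (-0.28) and dhps without lesioned 3 (-0.16), among other settings. The negative gene dph7 was positive in libraries 3 and 4 alone (0.041). The diphthamide synthesis gene dph5 had 40.4, 40.6, 32.9 and 53.8 CPM in lesioned 1 to 4, against 25.6, 16.5, 13.1 and 17.3 CPM in unlesioned 1 to 4. Its groups did not overlap, and its log2 fold change was 1.21 ± 0.30 (edgeR adjusted p = 0.172, DESeq2 adjusted p = 0.00968). The hypusine hydroxylase gene dohh had a log2 fold change of 1.12 ± 0.36 (edgeR adjusted p = 0.252). Mitochondrial translation factors had a median of 0.71, with 7 of 9 positive, among them the elongation factor gene tufm at 0.69 ± 0.26 and its exchange factor gene tsfm at 1.78 ± 0.61 (edgeR adjusted p = 0.325 and 0.278). The positive gene mtrf1l was negative in libraries 1 and 2 alone (-0.56). The negative genes gfm2 (0.8) and mtrf1 (0.29) were positive in limma voom, among other settings.

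The signalling lists differed in direction. In the mTOR and MNK list 7 of 13 were positive, with a median of 0.02. That median is the value of mknk2a, which was negative in libraries 3 and 4 alone (-0.8) and in other settings. The positive genes mlst8, tsc1b, tsc2 and rps6kb1b turned negative in some settings, and the negative genes rps6kb1a and rps6ka1 turned positive in some. The eIF4E kinase genes mknk1 and mknk2b had log2 fold changes of -0.69 ± 0.28 and -0.19 ± 0.65 (edgeR adjusted p = 0.354 and 0.957), and that of mknk2b was 0.64 without unlesioned 3. Poly(A)-binding proteins and their partners had a median of 0.00, with pabpc1a at 0.31 ± 0.62 and pdcd4b, an inhibitor of eIF4A, at -1.08 ± 0.68 (edgeR adjusted p = 0.920 and 0.616). In this list the signs of pabpc1a, pabpc1b, pabpc4, paip1 and paip2b changed with the setting. For the integrated stress response, which follows phosphorylation of eIF2, the median was -0.39, with 7 of 9 negative and 2 positive. Several of these signs changed with the setting. With library size alone as scaling, atf4a (0.089) and ppp1r15b (0.17) were positive. The gene ppp1r15b was also positive in limma voom (1.9), with the replicate block (1.6), with the batch term (1.7) and without unlesioned 3 (2.4), among other settings. In libraries 1 and 2 alone (0.24) and without unlesioned 3 (0.18) ddit3 was positive. In libraries 3 and 4 alone atf4a was positive (0.057) and asns, positive over all libraries, was negative (-0.37). The transcription factor gene atf4b of the integrated stress response had 1698, 1837, 2534 and 1319 CPM in lesioned 1 to 4, against 2850.1, 3290.4, 3209.9 and 3015 CPM in unlesioned 1 to 4. The groups did not overlap, and the log2 fold change was -0.74 ± 0.23 (edgeR adjusted p = 0.234).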

How the data were processed

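The authors deposited unnormalized read counts per gene for 8 libraries, each in a column of its own. Per the submitters' processing notes, bcl2fastq 2.19.1, GSNAP and featureCounts 1.6.2 were used with build GRCz11. The authors' file header names featureCounts 1.6.3, Ensembl 92, mapping quality 1 as the minimum and counting without strand (0), so overlapping and antisense genes cannot be told apart.

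The table gives identifiers only. Symbols came from the reference table for 23 of the 84 genes. For 57, a symbol shared by paralogs was resolved by comparing 15 neighbours on each side with at least 2 shared, and 4 kept a symbol in capitals. Checked on 2426 paralogs of known symbol, 2372 got their own symbol, 7 another and 47 none. Of the 84 genes 11 share exon bases with another gene, 5 of them over 10% (eef1a1l3, eif3ja, eif2ak1, eif2b4 and EEF1AKMT4 at 14.3%).

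The comparison was fitted in edgeR 4.0.16 (R 4.3.3) with TMM factors, filterByExpr and robust quasi-likelihood, tested two-sided. Each SE given was derived from this test, as the absolute log2 fold change divided by the square root of the F statistic. P-values were adjusted by Benjamini-Hochberg over 15759 genes, and genes were called at an adjusted p under 0.05. The common dispersion was 0.561 (a coefficient of variation of 74.9%). The script was tested on simulated data with planted fold changes larger than any of the module. That test does not cover differences of the size found here. DESeq2 1.42.0 and limma 3.58.1 (voom) were alternatives, besides other scaling, filters, a replicate block, a batch term, library subsets and leaving out each library. CPM are scaled by TMM-adjusted totals, and 92 spike-in entries were left out.

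The deviations of same-numbered libraries from their group means correlated at 0.192, 0.182, 0.232 and 0.154, each over 0.1. Crossed numbers in libraries 1 and 2 correlated alike, at 0.199 (lesioned 1, unlesioned 2) and 0.182 (lesioned 2, unlesioned 1). In libraries 3 and 4 the crossed values were 0.0234 (lesioned 3, unlesioned 4) and 0.0466 (lesioned 4, unlesioned 3). For libraries 1 and 2 a pairing by number therefore cannot be told from a shared library set. The main fit held the group alone and took no pairing. Only the replicate block and the comparisons by replicate number took the numbers to pair the libraries, which the labels do not state. Genes named in the text are, per complex or list, the most abundant per kb and that with the lowest p, all genes at an unadjusted p under 0.05 and all regulators. Any others named are copies of these, genes grouped by symbol alone, untested members, genes sharing exon bases, genes whose sign changed with a setting, or lower genes under the block. The members and lists were chosen with earlier results of these data known. Reads carry no molecular identifiers, so limits from counts cover counting error only.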

Additional observations from a re-analysis of the deposited data

Results flagged for a closer look

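In 6 of 110 groups of 4 libraries, 1 library stood apart: its gap to the nearest of the other 3 exceeded Dixon's 95% limit as a part of the whole range of the group, which chance does in about 1 of 20 groups. For eif2b1, unlesioned 1 had 45.8 CPM and the others 23.4, 24.9 and 26.3 CPM. For eif4e1c, unlesioned 4 had 57.6 CPM, below the 82.6, 83.4 and 84.7 CPM of the others. For eif4e2rs1, unlesioned 1 had 54.1 CPM beside 31.6, 34.6 and 34.6 CPM. For eif4bb, lesioned 4 had 225 CPM beside 163, 170 and 173 CPM. Outside the symbol rule, the eIF4E kinase gene mknk2b had 477 CPM in unlesioned 3 and 102, 103 and 143 CPM in the others, and the mitochondrial exchange factor gene tsfm had 6.01 CPM in lesioned 3 and 11.9, 12.2 and 12.9 CPM in the others. What set these libraries apart was not tested.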

How the results depend on the processing

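The median log2 fold change of the module lay between 0.31 and 0.61 over all settings (0.33 to 0.46 with 1 library left out), and 59 to 62 genes were positive with 1 library left out. With library size alone as scaling the median of all genes moved from -0.04 to 0.12, 3 members turned sign, and the median of the module was 0.61. Genes called numbered 5 higher and 1 lower in the module with DESeq2, 261 and 229 over all genes, and 3 higher among the partner genes. Over all genes, edgeR called 5 higher and 1 lower with no filter, 7 and 7 with a term for libraries 1 and 2 against 3 and 4, 5 and 1 in libraries 1 and 2 alone and 0 higher in libraries 3 and 4 alone. With 1 library left out it called 3 to 7 higher and 0 to 1 lower, the most without unlesioned 3. At an unadjusted p under 0.05 the module had 15 higher and 7 lower genes with libraries 1 and 2 alone (19.5 and 9.09%, against 7.79 and 7.11% of all genes), 8 and 0 with libraries 3 and 4 alone (10.4 and 0%, against 3.33 and 2.04%), 2 lower with library size alone (2.60%, against 3.33%), and 8 lower with the batch term (10.4%, against 6.59%). Leaving out 1 library gave 2 to 5 lower, against 4.15 to 6.41% of all genes. The replicate block, which takes the numbers as pairing, gave 26 higher and 8 lower at that level (33.8 and 10.4%, against 7.32 and 7.12%) and called 0 of the module, as without it. Groups of 2 libraries often do not overlap: this held with lesioned higher for 38 genes in libraries 1 and 2 (49.4%, against 24.7% of all genes) and 49 in libraries 3 and 4 (63.6%, against 20.1%), and with lesioned lower for 14 (18.2%, against 22.5%) and 8 (10.4%, against 17.2%). With lesioned lower, 1 gene was left with DESeq2 size factors, DESeq2 or the stricter filter (against 3.84, 3.88 and 5.52% of all genes), and 2 to 6 with 1 library left out (against 4.86 to 6.94%), where fewer libraries make overlap rarer.

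The 1005 values compared under alternatives are those of named genes and the count of positive module genes under each alternative. Of these, 971 were kept, 9 passed the threshold only in DESeq2 and 25 changed sign, none of them a gene that DESeq2 called. A gene value was kept if its direction and side of the threshold stayed, or its direction alone where DESeq2 gave no adjusted p. No named gene passed in the main fit, so a value of the same direction that did not pass was kept whatever its size. The count of kept values therefore does not measure how stable their sizes were. In libraries 3 and 4 alone the log2 fold change was 0.19 for eif2ak1, -0.075 for eif2ak3, 0.10 for eif4ebp1 and -0.0099 for eif4g2b, and in libraries 1 and 2 it was -0.068 for eef1g and 0.031 for mknk2b. With library size alone it was 0.079 for eif4ebp1 and 0.014 for eif5a. With 1 library left out the values ran from -0.18 to 0.32 for eif2ak3, -0.0057 to 0.12 for eif3f, -0.22 to 0.058 for eif4ebp1, -0.0066 to 0.37 for eif4g2b, -0.13 to 0.18 for eef1g, -0.092 to 0.64 for pabpc1a and -0.97 to 0.64 for mknk2b. The causes of these changes were not tested, and the low counts of the eIF2 kinases limit their values.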
